A study of Mus musculus with 18 samples.

Results

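Nrf2, the transcription factor encoded by Nfe2l2, was examined together with its inhibitor Keap1 and 8 enzymes that are classic Nrf2 targets (Nqo1, Gclc, Gclm, Gsr, Txnrd1, Srxn1, G6pdx and Gss). The members were chosen by gene symbol. Of the 10 genes, 9 were found on the array, with 17 of its 46643 probes, and the symbol Gsr was not among those of the table. Illumina bead arrays measured mRNA in the kidney cortex of 15 mice of 5 strains, 3 mice a strain, each 2 months old. B6 and BALB/c mice resist nephritis induced by antibodies to the glomerular basement membrane (anti-GBM), and NZW, DBA1 and 129/svj mice are sensitive to it. Every mouse had received the anti-GBM challenge and no unchallenged mouse was analysed here, so each difference compares strains after challenge and cannot be read as a response to it. Strain and sensitivity also cannot be told apart within a pair of inbred strains.

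In unstressed cells Keap1 holds Nrf2 and hands it to a ubiquitin ligase for degradation. Oxidants and electrophiles modify cysteines of Keap1, and Nrf2 then accumulates, pairs with a small Maf protein and binds antioxidant response elements near genes for glutathione synthesis, thiol reduction, quinone reduction and NADPH supply. In the kidney the tubules carry much of this oxidant load, and the glutathione made there is also used to conjugate and export toxins.

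The response element itself is short, so its letters were looked for around the start sites of the members. RefSeq windows of GRCm38.p6, each 250 bases before to 50 bases after a start site, were listed for 8 of the 10 members, all except Gclc and Gsr. The core TGACNNNGC, searched on both strands, was found in 5 members, in 1 window each, and the members had 10 windows in all. Of all 32851 windows 12.4% held the core. The segments that hold it are shown because Nrf2 is known to act through elements with this core, and binding at these sites was not measured. The matched bases are in capitals and each segment is written on the strand of its gene, so a match on the opposite strand appears as its reverse complement.
Nfe2l2 (chr2:75704885-75704913, minus strand): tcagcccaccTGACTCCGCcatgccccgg
Gclm (chr3:122245413-122245441, plus strand, match on the opposite strand): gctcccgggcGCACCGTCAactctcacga
Txnrd1 (chr10:82859104-82859132, plus strand, match on the opposite strand): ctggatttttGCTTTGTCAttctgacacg
G6pdx (chrX:74428919-74428947, minus strand, match on the opposite strand): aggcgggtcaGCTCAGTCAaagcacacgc
Srxn1 (chr2:152105542-152105570, plus strand, match on the opposite strand): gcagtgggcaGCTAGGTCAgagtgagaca

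The Srxn1 match lay after the start site, at bases 29 to 37 of the transcribed side, whereas those of the other 4 genes lay before it. For Txnrd1, 1 of its 3 windows held the core. A second form, TGANTCAGC, which overlaps the first where its N is C, was looked for after the first had been read. Of the members, only Srxn1 held it, at bases 45 to 37 before the start site, and 1.19% of all windows held it. The 250 bases before the Srxn1 start site (chr2:152105274-152105523, plus strand) are given in full because Srxn1 differed most between strains, with the second form in capitals.
Srxn1: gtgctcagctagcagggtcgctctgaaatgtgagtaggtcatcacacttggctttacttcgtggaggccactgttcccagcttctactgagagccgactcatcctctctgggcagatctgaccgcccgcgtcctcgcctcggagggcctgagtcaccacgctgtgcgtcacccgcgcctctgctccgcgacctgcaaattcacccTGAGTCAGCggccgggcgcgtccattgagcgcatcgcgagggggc

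No match was found in the windows of Keap1, Nqo1 and Gss, which says only that these letters are not in those 300 bases. These windows come from the reference genome, so they carry no strain difference.

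The arrays came as 2 tables, one of B6 and NZW and one of BALB/c, DBA1 and 129/svj, and every comparison was made within a table. The deposited signals had a median of 81.1 to 89.8 in the 6 arrays of the first table and of 118.5 to 151.6 in the 12 arrays of the second, and 30.5 to 36.4% of probes were detected. Mouse 3 of DBA1 was the least like its strain mates, with a mean correlation of 0.961, against 0.967 to 0.993 in the other 14 mice. A probe was tested where at least 3 mice had a detection p-value of 0.05 or less, and was called where limma gave an adjusted p under 0.05 after Benjamini-Hochberg correction over all tested probes. Values below are log2 signals after background correction and quantile normalization, and differences are between these log2 values. Probe sequences were not among the sources used here, so strain variants under a probe could not be looked for. Their part in any difference of signal between strains was not tested. In whole cortex, fewer cells of a type and less RNA per cell cannot be told apart. Among 10 tested probes of proximal tubule markers 2 were lower in B6 than in NZW and none was higher. These were 1 probe of Lrp2 (−1.16) and 1 of Cubn (−0.60), and the other tested Lrp2 probe, at −0.16, was not called. For this and the other marker counts in B6 and NZW, the share called among all tested probes was 18.8%. The summed signal of the proximal tubule markers was 97543 to 102341 in NZW and 87836 to 94109 in B6. For injured tubule markers the sum was 6820 to 8757 in NZW and 8217 to 16011 in B6, but the tested probes split. Of 5 tested probes 2 were higher in B6, Lcn2 by 1.80 (SE 0.46) and Spp1 by 0.69 (SE 0.19, limma, adjusted p = 0.029 and 0.034). The remaining called probe, Havcr1, was lower in B6 by −2.77 (SE 0.60, limma, adjusted p = 0.013). For macrophage markers the sum was 1184 to 1795 in NZW and 1569 to 3701 in B6, with 4 of 10 probes detected in no mouse of either strain and limma called 0 of 6 tested probes, 1 of them having an unadjusted p under 0.05. Loop, distal tubule and collecting duct markers summed to 35682 to 45845 in NZW and 50038 to 53006 in B6, without overlap. Of 10 tested probes 2, both of Slc12a3, were higher in B6, by 1.46 and 0.77. The other tested Slc12a3 probes, at −0.14 and 0.13, were not called. In the other strains BALB/c was compared with the mean of DBA1 and 129/svj, where 9.64% of all 6896 tested probes were called. Of 4 tested proximal tubule probes 1, of Lrp2, was higher in BALB/c. The difference was 0.63 (SE 0.14, limma, adjusted p = 0.0082), and the other tested Lrp2 probe, at 0.20, was not called. Of 3 tested distal probes 1, of Aqp2, was higher by 0.91 (SE 0.26, limma, adjusted p = 0.040). The part of these differences in the results below, those of Nqo1 and G6pdx included, was not tested.

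Of the 17 member probes, 14 could be read only in B6 and NZW, because their search key was absent from the other table or was not unique. Among them 11 passed the detection filter and 5 were called, 4 higher and 1 lower in B6, while 18.8% of all 16756 probes tested in these mice were called. The 5 called probes were 3 of Srxn1, 1 of Nqo1 and 1 of Gss, and 1 of the Srxn1 probes passed the filter through the B6 mice, being detected in 1 of 3 NZW mice. The median difference was 0.30 over the 11 member probes and −0.04 over all tested probes. By limma 5410 of the 16756 tested probes had an unadjusted p under 0.05. How many of all tested probes separate the strains of a table without overlap was not counted. Where strains are said below not to overlap, this describes the probe and does not set it apart from others. The 3 untested probes were 1 each of Nfe2l2 (ILMN_1214369), Nqo1 (ILMN_2766386) and Gclc (ILMN_2608016), and none of the 6 mice reached the detection threshold with any of them.

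**Figure D1:**
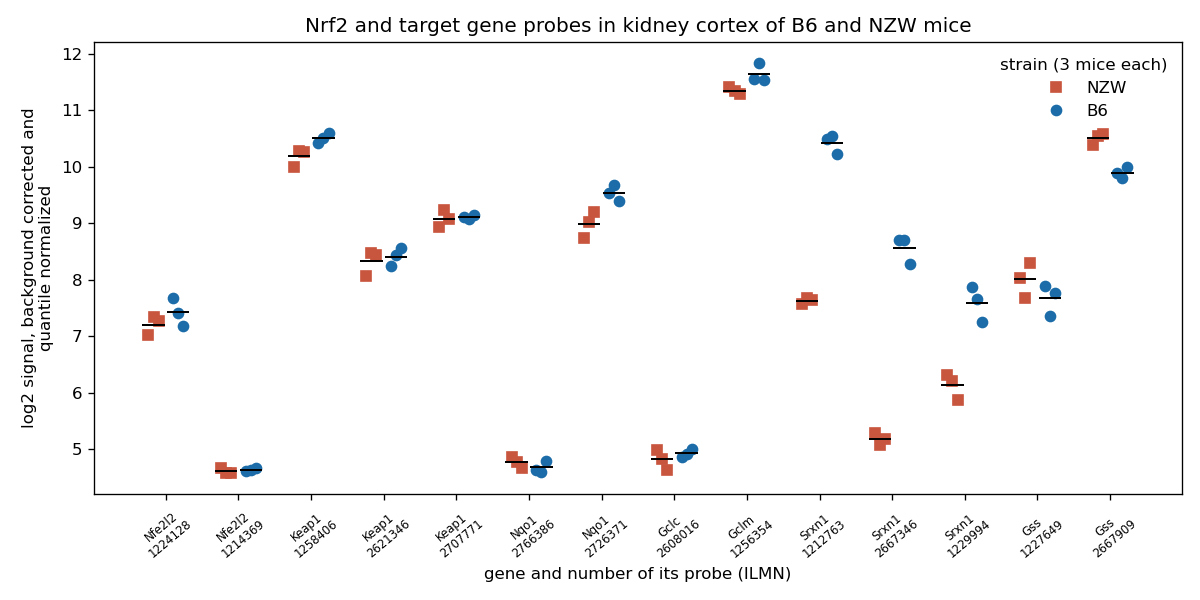
Log2 signal of each member probe read only in B6 and NZW, 1 point per mouse (squares NZW, circles B6) with a line at the mean of 3 mice. The 3 Srxn1 probes separate the strains most, with B6 means of 10.42, 8.56 and 7.59 against 7.63, 5.18 and 6.13 in NZW, and the 3 undetected probes lie near 5.

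With the processing described above, no tested probe of Nfe2l2 or Keap1 was called between the 2 strains. Nfe2l2, by probe ILMN_1224128, had log2 signals of 7.68, 7.41 and 7.18 in B6 and of 7.02, 7.34 and 7.26 in NZW. The strains overlapped, and the difference of 0.22 (SE 0.15, interval −0.13 to 0.57) was not called (limma, adjusted p = 0.37). Keap1, the adaptor that presents Nrf2 for degradation, was read by 3 probes. The brightest, ILMN_1258406, gave 10.42, 10.51 and 10.59 in B6 and 9.99, 10.28 and 10.26 in NZW. All 3 B6 mice lay above all 3 NZW mice there, yet the difference of 0.33 (SE 0.12) was not called (limma, adjusted p = 0.092). It was called without background correction (0.31, limma adjusted p = 0.044) and with an intensity trend in the variance (0.33, limma adjusted p = 0.040). The other 2 Keap1 probes differed by 0.08 and 0.03, with the strains overlapping in both, and they turned to −0.019 and −0.10 with arrays scaled to a common 75th percentile.

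Srxn1 encodes sulfiredoxin, which restores peroxiredoxins that peroxide has over-oxidized. Its signal was higher in B6 than in NZW by all 3 probes, and Srxn1 was the member with the largest differences. Probe ILMN_1212763 gave 10.49, 10.54 and 10.22 in B6 and 7.57, 7.67 and 7.64 in NZW. Here the deposited signals were 1113 to 1561 in B6 and 233 to 276 in NZW, and the log2 difference was 2.79 (SE 0.12, limma, adjusted p = 9.5e-07), a ratio of 6.91. Probe ILMN_2667346 gave 8.70, 8.71 and 8.27 in B6 and 5.28, 5.08 and 5.17 in NZW, where it was detected in 1 of 3 mice. It passed the detection filter through the B6 mice, so its fitted difference of 3.38, or 2.21 without background correction, is a description against a level near background and not a measured size. Probe ILMN_1229994, with 7.88, 7.66 and 7.24 in B6 and 6.30, 6.20 and 5.87 in NZW, differed by 1.47 (SE 0.18, limma, adjusted p = 7.2e-04). No B6 mouse overlapped an NZW mouse in any of the 3.

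The 2 Srxn1 probes detected in every mouse agreed in direction and not in size, at 2.79 and 1.47. By the size of the difference they ranked 125th and 464th of the 16756 tested probes. Both stayed called with each mouse left out in turn, with differences of 2.74 to 2.89 and 1.33 to 1.65. The size depended on the treatment of background: over the other processing settings the differences were 2.45 to 2.79 and 0.95 to 1.47. None of the 3 Srxn1 probes could be read in BALB/c, DBA1 or 129/svj, since their key is not in that table. Genes that lie beside Srxn1 in the RefSeq order were read as well, 10 protein-coding genes on each side, and 10 of them had a tested probe. Of these, Tbc1d20 (1.84, SE 0.15) and Zcchc3 (1.54, SE 0.12) were higher in B6 and Sox12 (−0.75, SE 0.13) was lower, each by 1 tested probe (limma, adjusted p = 5.7e-05, 5.3e-05 and 0.0041). Fam110a was lower by 1 of its 2 tested probes (−0.57, SE 0.11, limma, adjusted p = 0.0076), and the tested probes of the other 6 genes were not called, among them those of the near neighbours Tcf15 (−0.05) and Slc52a3 (−0.14).

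**Figure D2:**
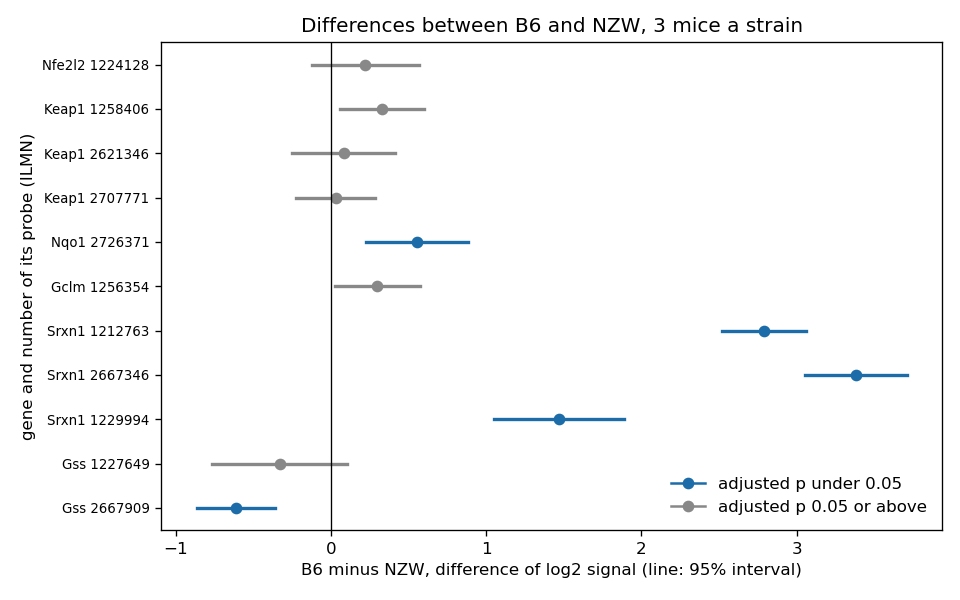
B6 minus NZW difference of log2 signal for the 11 tested member probes read only in these strains, with 95% intervals, blue where the adjusted p was under 0.05. The Srxn1 intervals begin at 1.05 or above (that of ILMN_2667346 is set against an NZW level near background), the Nqo1 interval runs from 0.22 to 0.88, and 1 Gss probe lies wholly below 0, from −0.87 to −0.36.

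Nqo1 encodes NAD(P)H quinone dehydrogenase, the enzyme most often used as a readout of Nrf2. In B6 its probe ILMN_2726371 gave 9.53, 9.67 and 9.40, and in NZW 8.73, 9.01 and 9.20. The strains did not overlap, and Nqo1 was higher in B6 by 0.55 (SE 0.14, limma, adjusted p = 0.030), a ratio of 1.47. That call was lost with the 75th percentile scaling (0.41, limma, adjusted p = 0.0752) and, at the same 0.55, with no detection filter (limma, adjusted p = 0.055), with the replicate block (limma, adjusted p = 0.0512) and by the methods' t-test after Benjamini-Hochberg correction over all probes (adjusted p = 0.119). It was also lost when any mouse except NZW mouse 3 was left out, with differences of 0.43 to 0.62 and limma adjusted p of 0.051 to 0.12. Without NZW mouse 3 the difference was 0.66 (limma, adjusted p = 0.023).

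In the other table Nqo1 ran the other way, lower in the resistant strain. The row that carries the Nqo1 key, 6840121, gave 8.54, 8.37 and 8.49 in BALB/c. In DBA1 it gave 9.41, 9.33 and 9.0, and in 129/svj 9.26, 9.06 and 9.46. All 3 BALB/c mice lay below all 6 mice of the sensitive strains, while DBA1 and 129/svj overlapped. The difference of BALB/c from the mean of DBA1 and 129/svj was −0.79 (SE 0.14, limma, adjusted p = 0.0077), where 5.99% of all 15818 probes tested in this table were called. The difference was −0.78 from DBA1 (SE 0.16, limma, adjusted p = 0.018) and −0.80 from 129/svj (SE 0.16, limma, adjusted p = 0.018), in comparisons that called 5.75% and 4.82% of probes. Between DBA1 and 129/svj it was −0.01 (SE 0.16, interval −0.37 to 0.35), where 4.48% of probes were called. The call against the mean was lost without BALB/c mouse 2 (−0.74, limma, adjusted p = 0.060). The call against either single strain was lost when any of the 3 BALB/c mice was left out (limma adjusted p of 0.058 to 0.094), and also without mouse 1 or 2 of DBA1 or mouse 1 or 3 of 129/svj for the strain concerned. Since 2 probes of the B6 and NZW table share this key, the row cannot be assigned to 1 of them, and only one of those was detected in B6 and NZW. For the same reason no single fit joined the 2 Nqo1 results, and the difference between them was not tested. The corresponding Nfe2l2 row, 3390162, was detected in none of the 9 mice.

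**Figure D3:**
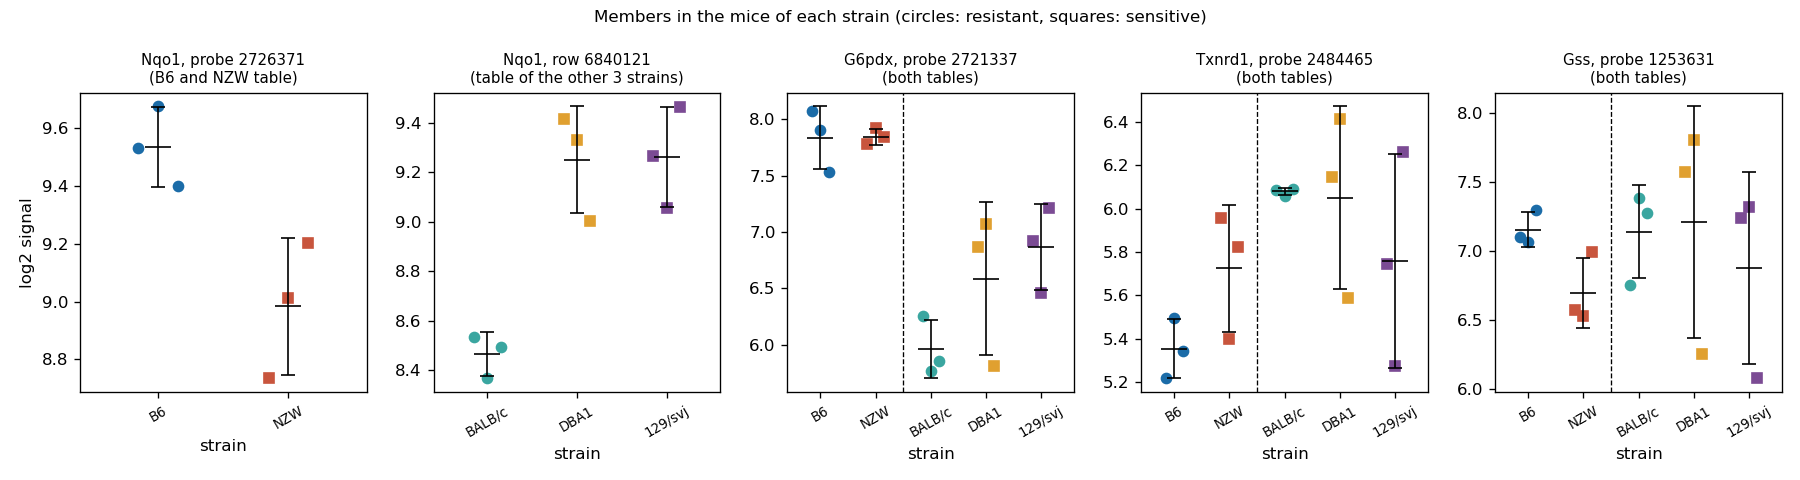
Log2 signal per mouse for Nqo1 in each table and for the 3 members read in both tables, with the mean and SD of 3 mice; circles are resistant strains, squares sensitive strains, and the dashed line parts the tables. Each panel has its own vertical axis. Nqo1 is higher in B6 than in NZW and lower in BALB/c (mean 8.46) than in DBA1 and 129/svj (9.25 and 9.26). Compared with DBA1 and 129/svj only, G6pdx has its lowest mean in BALB/c (5.96), near background, and mouse 3 of DBA1 lies among the BALB/c mice. That G6pdx difference was not called.

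Glutathione is made from its amino acids by Gclc and Gclm, the catalytic and modifier subunits of glutamate-cysteine ligase, and then by Gss, glutathione synthetase. Gclm was bright in both strains, with 11.55, 11.83 and 11.53 in B6 and 11.40, 11.33 and 11.28 in NZW. Every B6 mouse exceeded every NZW mouse, but the difference of 0.30 (SE 0.12) was not called (limma, adjusted p = 0.12). With an intensity trend in the variance it was called, at 0.30 (limma, adjusted p = 0.0465), and by the 75th percentile scaling it was 0.12.

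The 3 Gss probes disagreed. Probe ILMN_2667909 gave 9.88, 9.79 and 9.99 in B6 and 10.38, 10.54 and 10.58 in NZW, without overlap, and was lower in B6 by −0.61 (SE 0.11, limma, adjusted p = 0.0057). Probe ILMN_1227649, which has the same key, was at −0.33 (SE 0.19, limma, adjusted p = 0.28), with overlapping strains. The third, ILMN_1253631, was keyed to a different transcript and could be read in both tables. It gave 7.10, 7.07 and 7.30 in B6 and 6.57, 6.53 and 6.99 in NZW, a difference of 0.46 (SE 0.37, limma, adjusted p = 0.57) in the fit of both tables, but of 0.57 (SE 0.15, limma, adjusted p = 0.032) in the fit of B6 and NZW alone. Thus probes of the same gene were called in opposite directions in the table of B6 and NZW, and the mean of the 3 was −0.13 (limma, adjusted p = 0.57).

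Txnrd1, G6pdx and the third Gss probe were the 3 member probes that could be compared in all 5 strains. The limma fit called 0 of the 3 in each of 7 comparisons. At an unadjusted p under 0.05 limma had 1 of the 3, G6pdx, in each comparison of BALB/c with DBA1, 129/svj or their mean, and 0 in the other 4. The methods' t-test at its own unadjusted threshold had 1 for B6 against NZW, 1 for BALB/c against the mean and 1 for BALB/c against 129/svj. The comparisons called 9.83% of the 6896 probes they shared for B6 against NZW, 9.64% for BALB/c against the mean of DBA1 and 129/svj, 12.0% for resistant against sensitive strains, 9.44% for BALB/c against DBA1, 7.47% for BALB/c against 129/svj, 7.29% for DBA1 against 129/svj, and 10.3% for the difference between the 2 tables.

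G6pdx encodes glucose-6-phosphate dehydrogenase, which feeds NADPH to the glutathione and thioredoxin reductases. In BALB/c it gave 6.25, 5.77 and 5.86, in DBA1 6.87, 7.07 and 5.81, and in 129/svj 6.92, 6.46 and 7.21. All BALB/c mice lay below those of 129/svj, and mouse 3 of DBA1 lay among the BALB/c mice. The probe was dim in BALB/c, with detection p-values of 0.015, 0.049 and 0.022 and deposited signals of 166 to 187, near background. BALB/c differed from the mean of DBA1 and 129/svj by −0.77 (SE 0.24, interval −1.28 to −0.25), which was not called (limma, adjusted p = 0.061). Over the other processing settings this difference ran from −0.94 to −0.37. The result turned on single mice, and was called without DBA1 mouse 3 (−0.96, limma, adjusted p = 0.0023), without 129/svj mouse 2 (−0.87, limma, adjusted p = 0.032) or with the repeat arrays left out (−0.94, limma, adjusted p = 0.023). In the other table G6pdx gave 8.07, 7.91 and 7.53 in B6 and 7.78, 7.92 and 7.84 in NZW. There the strains overlapped, with a difference of −0.01 (SE 0.28, interval −0.61 to 0.59). Over both tables the resistant strains differed from the sensitive strains by −0.39 (SE 0.18, limma, adjusted p = 0.22), and the difference between the tables was −0.76 (SE 0.37, limma, adjusted p = 0.25). Without DBA1 mouse 3 both were called, at −0.49 (limma, adjusted p = 0.024) and −0.95 (limma, adjusted p = 0.028). The SE and p of resistant against sensitive strains come from the spread of mice within strains, not from the spread between strains.

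Txnrd1, the cytosolic thioredoxin reductase, was dim. It was detected in 2 of 3 NZW mice, 1 B6 mouse, 3 BALB/c mice, 2 DBA1 mice and 1 of the 129/svj mice. Its log2 signals were 5.22 to 5.49 in B6, 5.40 to 5.96 in NZW, 6.06 to 6.09 in BALB/c, 5.59 to 6.41 in DBA1 and 5.27 to 6.26 in 129/svj. B6 minus NZW was −0.37 (SE 0.24, interval −0.88 to 0.14) and BALB/c minus the mean of the 2 sensitive strains was 0.18 (SE 0.21, interval −0.27 to 0.62). For the third Gss probe, the latter difference was 0.09 (SE 0.32, interval −0.59 to 0.78), and its values spread from 6.25 to 7.81 in DBA1 and from 6.07 to 7.32 in 129/svj.

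Beyond the 9 genes, other genes of the Nrf2 pathway were read from a list drawn up by role (regulators, thiol redox enzymes, NADPH suppliers, haem and iron handling, detoxification, transport). In B6 and NZW the list had 71 probes of 41 genes. Of 47 tested probes 8 were higher and 2 lower in B6, 10 in all, while 18.8% of all tested probes were called, and the median difference was 0.03. The thiol redox list had 3 of 7 tested probes higher, NADPH supply and detoxification 2 of 6 and 2 of 10, and haem and iron 1 of 9 higher and 1 lower. Of the 10 tested regulator probes 1 was lower, and limma called 0 of 5 transport probes, with 0 at an unadjusted p under 0.05.

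Glrx, a glutaredoxin that reduces protein-glutathione disulfides, gave 11.69, 11.63 and 11.57 in B6 and 6.76, 6.98 and 6.51 in NZW. The difference was 4.88 (SE 0.13, limma, adjusted p = 1.0e-07). Cbr3, a carbonyl reductase, gave 8.96, 8.99 and 8.49 in B6 and 5.84, 6.13 and 5.78 in NZW, a difference of 2.89 (SE 0.16, limma, adjusted p = 5.8e-06). Idh1, the cytosolic isocitrate dehydrogenase that makes NADPH, differed by 2.55 (SE 0.10) and 2.46 (SE 0.12) with its 2 probes (limma, adjusted p = 7.0e-07 and 2.5e-06). Blvrb, a biliverdin reductase, was lower in B6 by −0.98 (SE 0.12, limma, adjusted p = 5.5e-04), and Maff, a small Maf partner of Nrf2, by −0.38 (SE 0.11, limma, adjusted p = 0.038). The other probes higher in B6 were of Cbr1 (1.53), Prdx1 (1.23), Osgin1 (0.80) and Hmox1 (0.67). Of these, Prdx1, Osgin1 and Hmox1 lay outside the naming rule and were named after their values were seen.

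**Figure D4:**
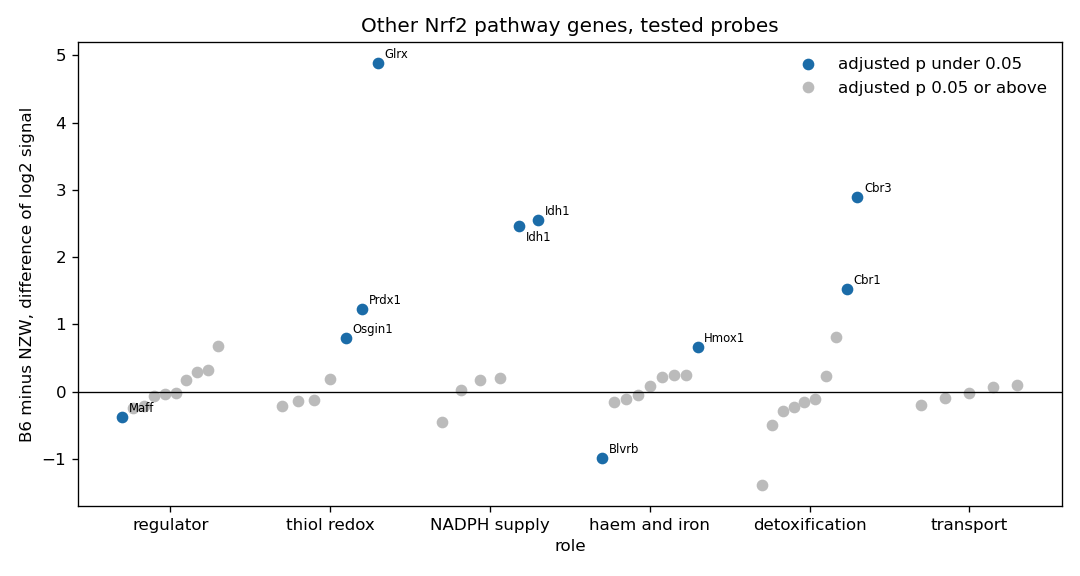
B6 minus NZW difference of log2 signal for the 47 tested probes of other Nrf2 pathway genes, grouped by role, 1 point per probe; blue, named points had an adjusted p under 0.05. The 8 higher probes run from 0.67 (Hmox1) to 4.88 (Glrx), the 2 lower are Maff and Blvrb, and the lowest point, Akr1b3 at −1.39 (SE 0.53), was not called.

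In all 5 strains 14 probes of this list could be tested. In the comparison of resistant with sensitive strains 2 were higher and 1 lower, while 12.0% of all 6896 tested probes were called. The median difference was −0.06 over the 14 probes and −0.01 over all tested probes. The SE and p of this comparison, here and for Glrx below, come from the spread of mice within strains. They do not measure how resistant strains, or sensitive strains, differ among themselves. Cbr1, a carbonyl reductase, was higher in the resistant strains by 1.30 (SE 0.10, limma, adjusted p = 3.5e-07). It gave 12.67, 12.70 and 12.52 in B6 against 11.11, 11.24 and 11.00 in NZW, and 13.12, 12.94 and 12.69 in BALB/c against 11.26, 11.25 and 11.28 in DBA1. In 129/svj it gave 12.58, 12.54 and 12.09, below every BALB/c mouse, but the difference of BALB/c from 129/svj was not called, and DBA1 was lower than 129/svj by −1.14 (SE 0.15, limma, adjusted p = 1.1e-04). Blvrb was lower in the resistant strains by −0.75 (SE 0.09, limma, adjusted p = 5.9e-05), with −0.96 for B6 minus NZW and −0.97 for BALB/c minus 129/svj. Between BALB/c and DBA1 the mice overlapped, and the difference of −0.12 (SE 0.14) was not called (limma, adjusted p = 0.72).

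Glrx was higher in the resistant strains by 2.26 (SE 0.20, limma, adjusted p = 2.0e-06), but this rested on one table. B6 exceeded NZW by 4.54 (SE 0.31, limma, adjusted p = 8.1e-08) in this fit, whereas BALB/c gave 9.64, 9.23 and 8.40, DBA1 8.75, 8.78 and 9.20, and 129/svj 9.66, 8.58 and 9.75, all 3 strains overlapping. The difference between the tables was −4.57 (SE 0.41, limma, adjusted p = 1.9e-06). Bach1, a repressor that competes with Nrf2 for the same elements, was higher in BALB/c than in the mean of DBA1 and 129/svj by 0.62 (SE 0.18, limma, adjusted p = 0.048). Bach1 was called against neither DBA1 nor 129/svj alone. Abcc3, an exporter of conjugates, was higher in DBA1 than in 129/svj by 1.02 (SE 0.16, limma, adjusted p = 6.5e-04) and lower in BALB/c than in DBA1 by −0.57 (SE 0.16, limma, adjusted p = 0.038).

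**Figure D5:**
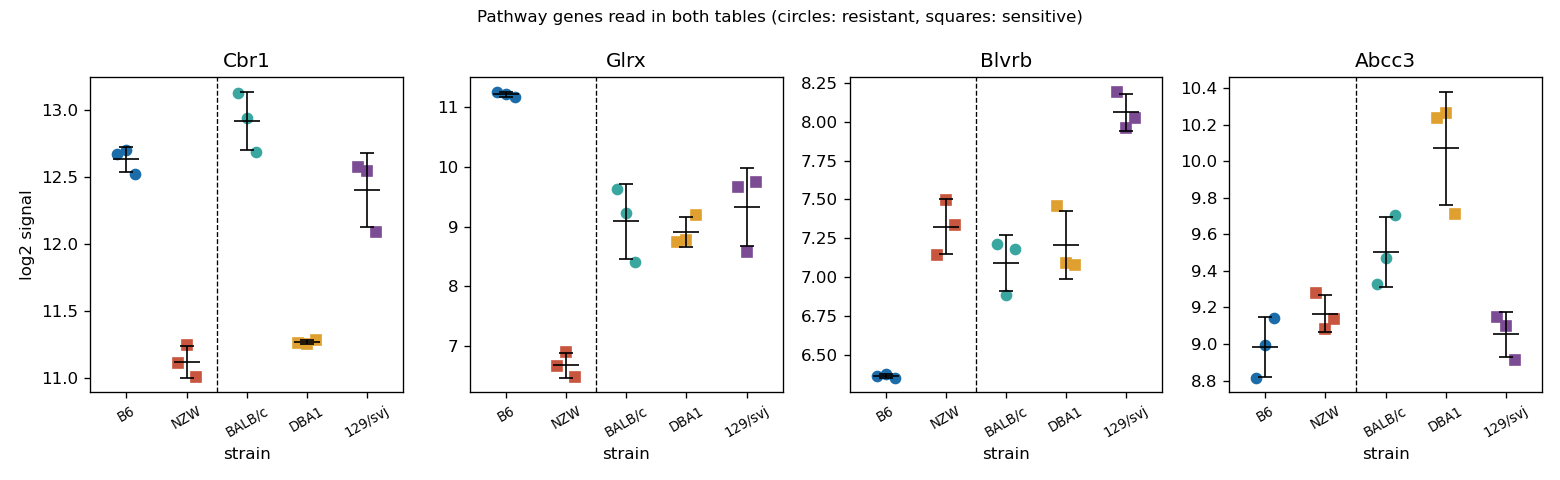
Log2 signal per mouse of Cbr1, Glrx, Blvrb and Abcc3 in the 5 strains, with the mean and SD of 3 mice; circles are resistant strains, squares sensitive strains, and the dashed line parts the tables. Cbr1 separates B6 from NZW and BALB/c from DBA1, while Glrx separates B6 from NZW and overlaps among the other 3 strains.

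The probes that followed Nqo1 most closely were also listed, over the 6 mice of B6 and NZW because the Nqo1 key is not unique across tables. Their Pearson correlations with ILMN_2726371 were 0.993 for Nkg7, 0.990 for Kbtbd2 and 2410166I05Rik, 0.986 for 9530006O14Rik and 0.985 for E330020G21Rik. None of these 5 belongs to the members or the pathway list, the 6 mice share 2 strains, and with so few mice these values are a description only.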

How the data were processed

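Kidney cortex RNA of 15 mice was hybridised to 18 Illumina Mouse WG-6 bead arrays, 3 of them repeats of a mouse already run, which were averaged. The authors deposited non-normalized average signal intensity and detection p-value per probe, in 2 tables; the software settings and genome build are not given in the sources used here. Members and lists were chosen with earlier results of these data known. Per array, background was corrected by normexp from the detection p-values (offset 16), followed by quantile normalization and log2. The 19886 probe pairs with a key found once in both tables were normalized together and fitted over all 15 mice with limma 3.58.1 in R 4.3.3, 1 coefficient per strain. Other probes were fitted in the table of B6 and NZW alone. The Nqo1 and Nfe2l2 rows of the other table were fitted in that table alone, a choice made after seeing the data. Probes detected in at least 3 mice were tested, and p-values were Benjamini-Hochberg adjusted. Labels give separate mice per strain and no litters. Same-numbered mice deviated together in all 3 pairs of DBA1 and 129/svj (correlations 0.105 to 0.387) but not in all 3 of any other strain pair. The number of arrays limits precision. Named pathway genes were the 3 largest rises and 3 largest falls among called probes of a comparison, and every member probe was accounted for; the 5 probes most like Nqo1 were sought over 6 mice in place of 15. Steps were tested on simulated data. Alternatives covered offset 50, no background correction, 75th percentile scaling, separate normalization, detection filters, repeat arrays, a replicate block, a variance trend, strain as a random block, the methods' t-test and each mouse left out. Promoter windows were read with Python 3.11.15 and pandas 2.3.3, and plots made with matplotlib 3.10.9.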

Additional observations from a re-analysis of the deposited data

Results flagged for a closer look

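Nqo1 is listed here because its 2 within-table differences had opposite directions, and in each table the mice of the resistant strain did not overlap those of the sensitive strains. By probe ILMN_2726371 all 3 B6 mice lay above all 3 NZW mice, with a difference of 0.55 on the log2 scale, and by row 6840121 of the other table all 3 BALB/c mice lay below all 6 DBA1 and 129/svj mice, with a difference of −0.79. The difference between these results was not tested, because the Nqo1 key belongs to 2 probes of the first table and no single fit holds both. Groups of 3 mice are too small for a check of single outlying values.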

How the results depend on the processing

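The 2 Srxn1 probes detected in every mouse were called under every alternative and with each of the 6 B6 and NZW mice left out, at 0.95 to 2.79 and 1.33 to 2.89. The Nqo1 call in B6 and NZW was lost under 4 alternatives (75th percentile scaling, no filter, the replicate block and the methods' t-test after Benjamini-Hochberg) and with 5 of the 6 mice left out. The Nqo1 call of BALB/c against the mean was lost without BALB/c mouse 2. The cause was not tested in any of these cases. Differences that were not called and turned sign were G6pdx for B6 minus NZW (0.061 with each table normalized on its own, −0.12 to 0.14 with a mouse left out), Txnrd1 for BALB/c minus DBA1 (−0.025 with the repeat arrays left out, −0.20 to 0.21 with a mouse left out), and Nqo1 for DBA1 minus 129/svj (0.0049 with the repeat arrays left out, −0.11 to 0.11 with a mouse left out). The others were 2 Keap1 probes (−0.019 and −0.10 with 75th percentile scaling, −0.050 to 0.17 and −0.043 to 0.10 with a mouse left out). With a mouse left out, Gss was −0.15 to 0.29 for BALB/c minus the mean, −0.55 to 0.23 for BALB/c minus DBA1, −0.14 to 0.49 for BALB/c minus 129/svj and −0.071 to 0.81 for DBA1 minus 129/svj, and G6pdx was −0.53 to 0.11 for DBA1 minus 129/svj.

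Counts over all probes moved by more than 1.5 times in the following cases. For probes paired across tables, normalizing each table on its own called 3157 probes and 1 member for B6 minus NZW, over the larger number of probes tested there. Requiring detection in every mouse, which tests fewer probes, called 326 probes for B6 minus NZW, 368 for BALB/c minus the mean, 412 for resistant minus sensitive, 360 for BALB/c minus DBA1, 267 for BALB/c minus 129/svj, 209 for DBA1 minus 129/svj and 381 for the difference between tables. The methods' t-test at its own threshold called 1897, 1047, 893 and 768 probes for B6 minus NZW, BALB/c minus DBA1, BALB/c minus 129/svj and DBA1 minus 129/svj, and 1 member each for B6 minus NZW, BALB/c minus the mean and BALB/c minus 129/svj. After Benjamini-Hochberg it called 107 for BALB/c minus the mean, 32 for resistant minus sensitive (pooling mice across tables), 122 for BALB/c minus DBA1, 134 for BALB/c minus 129/svj and 118 for DBA1 minus 129/svj. Strain as a random block left 105 for resistant minus sensitive, and leaving out the repeat arrays called 1 member, G6pdx, for BALB/c minus the mean and for BALB/c minus 129/svj. For B6 and NZW alone the methods' t-test called 4771 probes at its own threshold and 1851 after Benjamini-Hochberg. In the other table, for BALB/c minus the mean, minus DBA1, minus 129/svj and DBA1 minus 129/svj in that order, detection in every mouse gave 576, 587, 466 and 368, the methods' t-test at its own threshold 2187, 2728, 2235 and 1785, and after Benjamini-Hochberg 294, 399, 318 and 218, with 0 members for BALB/c minus DBA1 and for BALB/c minus 129/svj.

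With a mouse left out, paired probes called were 427 to 818 for B6 minus NZW, 408 to 761 for BALB/c minus the mean and 466 to 834 for the difference between tables. Member probes called were 0 to 1 for BALB/c minus the mean, DBA1 or 129/svj, for resistant minus sensitive and for the difference between tables. In B6 and NZW alone the probes called were 1737 to 2634, and for the other 3 strains on their own they were 452 to 1068, 450 to 1167, 442 to 951 and 426 to 736 in the order above, with 0 to 1 members in the comparisons with BALB/c. Scaling to the 75th percentile called 37.3% of calls higher in B6 against 49.0% before, with the median over all probes at −0.13 against −0.04, and for paired probes 49.3% against 59.4%.

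Same-numbered mice deviated from their strain means with correlations of −0.07 to 0.01 for B6 and NZW, −0.26 to 0.13 for BALB/c and DBA1, and −0.0019 to 0.090 for BALB/c and 129/svj. For DBA1 and 129/svj all 3 pairs correlated above 0.1 (0.192, 0.105 and 0.387), although the labels name no shared litter or day. With the replicate block DBA1 minus 129/svj had 476 paired probes called against 503, and 678 against 709 for the 3 strains on their own, and 0 members either way. Among the member probes of all comparisons the block changed the call of Nqo1 in B6 and NZW alone, leaving its difference at 0.55, with a limma adjusted p of 0.0512. Dim probes such as Txnrd1 lie near background, which limits what can be seen for them.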
